A study of Mus musculus with 6 samples.

Results

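The 10 genes described here encode the core machinery that takes a cell through the G1 phase and into S phase. They are the D cyclins Ccnd1, Ccnd2 and Ccnd3, the kinases Cdk4 and Cdk6, the E cyclins Ccne1 and Ccne2, the Cip/Kip inhibitors Cdkn1b (p27) and Cdkn1c (p57), and the pocket protein Rb1. They were chosen by gene symbol among the 17348 genes of the expression table, all 10 were found, and all 10 passed the filter on low counts. Ccnd2 is at the centre of the set because the study lists it among the target mRNAs of Ybx1, a protein that binds mRNA at 5-methylcytosine (m5C).

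D cyclins bind Cdk4 and Cdk6, and the active kinases phosphorylate Rb1. Phosphorylated Rb1 releases the E2F transcription factors, which switch on genes of DNA replication and the E cyclins, and these carry the step into S phase together with Cdk2. Cdkn1b and Cdkn1c hold the kinases in check and rise in many cells that leave the cycle. In the developing cortex Ccnd2 is the D cyclin best known for the division of neural progenitors, and its mRNA and protein are found in the basal processes of radial glia.

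The libraries were made from RNA of mouse cortex at E18.5 (embryonic day), on a C57BL/6J background, with 3 libraries of control (Ctrl) and 3 of conditional knockout (cKO) animals. The methods of the study name a step of mRNA purification before the libraries were built. The cKO animals carried Nestin-Cre and Ybx1 fl/fl, in which Cre removes part of the gene in neural progenitors and the cells that descend from them, so vessels, blood and microglia keep an intact copy. The controls were littermates, given as WT in the sample labels, while the text of the study also speaks of Ybx1 fl/fl controls. Neither source says whether a library came from 1 embryo, so p-values measure only the spread between these libraries.

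Each library held 15091951 to 16885451 estimated counts. Ybx1 itself, the targeted gene, had 13950 to 22152 counts in the Ctrl libraries and 387 to 394 in the cKO libraries. The cortical markers Emx1 (19.2 to 32.2 CPM in Ctrl and 19.9 to 31.9 CPM in cKO) and Emx2 (16.6 to 18.7 CPM in Ctrl and 17.5 to 21.3 CPM in cKO) were detected in every library. The groups also differed in 3 Y-linked genes, Ddx3y, Kdm5d and Eif2s3y, which had at least 714 counts each in every Ctrl library and at most 1 in every cKO library. The 10 G1 genes are autosomal, and any effect of sex on them cannot be told apart from that of genotype. Ctrl replicate 2 stood apart from the other libraries: the chi-square per degree of freedom against Ctrl replicates 1 and 3 was 39.7 and 62.4, compared with 10.2 between those and 3.41 to 8.66 among the cKO libraries. Values without it are given beside many of the results that it moved.

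The 3 D cyclins are close relatives that can bind the same kinases. Their first 30 coding bases (5′ to 3′, GENCODE transcripts, GRCm38) are shown because all of them hold, in capitals, the 15 bases that encode the LxCxE motif, the short stretch through which D cyclins contact Rb1.
Ccnd1, chr7:144939664-144939693, minus strand: atggaacaccagCTCCTGTGCTGCGAAgtg
Ccnd2, chr6:127150744-127150773, minus strand: atggagCTGCTGTGCTGCGAGgtggacccg
Ccnd3, chr17:47593655-47593684, plus strand: atggagCTGCTGTGTTGCGAGggcacccgg
The motif occupied codons 3 to 7 of Ccnd2 and of Ccnd3 and codons 5 to 9 of Ccnd1. Of its 15 bases, 14 were identical between Ccnd2 and Ccnd3, 13 between Ccnd1 and Ccnd2, and 12 between Ccnd1 and Ccnd3.

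The genes lie on 7 chromosomes of GRCm38. Ccnd2 (chr6:127125162-127152193) and Cdkn1b (chr6:134920401-134925513) share chromosome 6. Chromosome 7 holds Ccnd1 (chr7:144929931-144939925), Cdkn1c (chr7:143458339-143461050), an imprinted gene, and Ccne1 (chr7:38097984-38107534). The others are Ccnd3 (chr17:47505051-47599691), Cdk4 (chr10:127063534-127067920), Cdk6 (chr5:3341485-3531008), Ccne2 (chr4:11191351-11204779) and Rb1 (chr14:73183673-73325822).

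Levels were compared between genes on the TPM scale, which divides by transcript length. Cdk4 was the most abundant of the 10, with 517.1 to 662.3 TPM over the 6 libraries, and its median stood at the 98.3rd percentile of the tested genes. Cdkn1b followed with 166.6 to 212.7 TPM, and Ccnd2 came next with 96.1 to 160.3 TPM. Cdkn1c, the other inhibitor of the set, ranged from 52.8 to 98.0 TPM and overlapped with Ccnd2. The remaining 6 were lower, with medians of 42.3 TPM for Rb1, 30.8 for Ccnd3, 22.8 for Ccnd1, 16.03 for Cdk6, 8.61 for Ccne2 and 6.38 for Ccne1, which stood at the 22.4th percentile. In this order the ranges of neighbours were separate between Cdk4 and Cdkn1b, between Cdkn1b and Ccnd2 and between Cdkn1c and Rb1, and overlapped for all other neighbours. The TPM of Cdk4 was 73.5 times that of Cdk6, its close relative, in Ctrl replicate 2, and 26.5 to 36.3 times in the other 5 libraries.

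Groups were compared on normalized counts, given as CPM on the TMM-scaled library total, with edgeR's quasi-likelihood test and Benjamini-Hochberg adjustment over 13570 genes. With it 0 of the 10 G1 genes passed an adjusted p of 0.05, against 0.0737% of all tested genes. At an unadjusted p under 0.05, 2 of 10 were called, Ccnd2 and Cdkn1c, against 6.62% of all tested genes. Both were lower in cKO, a direction in which 3.49% of all genes were called. The Ctrl and cKO libraries did not overlap for the same pair of genes, and this held for 14.3% of all genes. The median log2 fold change of the 10 was 0.03, compared with 0.00 over all tested genes, and 6 of the 10 lay above 0.

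**Figure D1:**
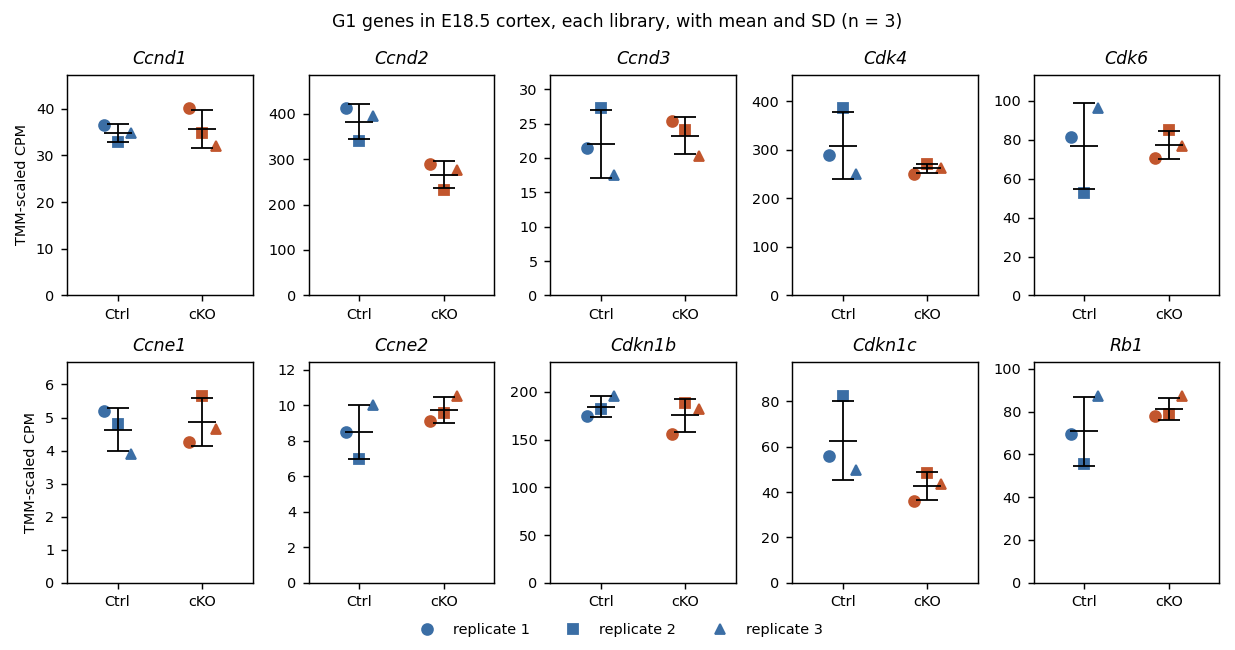
TMM-scaled CPM (y axes, each starting at 0) of the 10 G1 genes in the 3 Ctrl (blue) and 3 cKO (orange) libraries, with 1 symbol per replicate number and the mean and SD in black. The cKO libraries lie below all Ctrl libraries for Ccnd2 and Cdkn1c, and the groups overlap for the other 8 genes.

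Ccnd2 had 411.7, 339.4 and 395.3 CPM in Ctrl replicates 1, 2 and 3, and 288.9, 231.6 and 276.0 CPM in cKO replicates 1, 2 and 3. Every cKO library was below every Ctrl library, and the second replicate was the lowest of each group. The means were 382.1 ± 37.9 and 265.5 ± 30.02 CPM (SD, n = 3), a log2 fold change of -0.53 (SE 0.13), or 0.695-fold with a 95% interval of 0.567 to 0.851. With all 6 libraries the difference did not pass the test over all genes (edgeR adjusted p = 0.384), and the exact two-sided permutation test gave p = 0.1, the smallest value that 3 against 3 libraries allow. Since the study chose its Ybx1 targets partly on these libraries, the lower level is not independent evidence of the direction.

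The call on Ccnd2 depended on the test and on the libraries used. DESeq2, another count test, gave nearly the same log2 fold change, -0.53, and an adjusted p of 0.0311. With it Ccnd2 was the 1 member called, and 0.718% of all genes were. A correction of each library for transcript length and GC content gave -0.63 (SE 0.09, adjusted p = 0.0118 by edgeR), where Ccnd2 was again the 1 member called and 1.13% of all genes were. Leaving out Ctrl replicate 2 gave -0.60 (SE 0.10, adjusted p = 0.0208 by edgeR), where Ccnd2 was also the 1 member called and 0.891% of all genes were. Over the 16 alternatives tried, the log2 fold change of Ccnd2 stayed between -0.64 and -0.37, with adjusted p from 0.0118 to 0.9999.

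**Figure D2:**
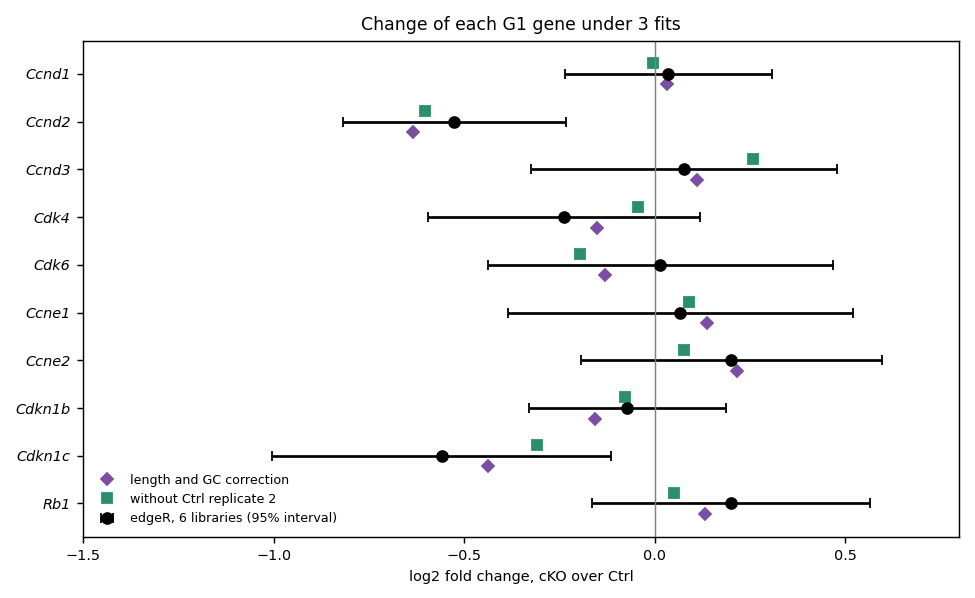
Log2 fold change of cKO over Ctrl (x axis) for each G1 gene with all 6 libraries (black, with the 95% interval of the edgeR fit), after correction for transcript length and GC content (purple) and without Ctrl replicate 2 (green). Ccnd2 lies between -0.63 and -0.53 in the 3 fits, while Cdkn1c moves from -0.56 to -0.31 and the intervals of the other 8 genes hold 0.

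Ccnd1, the D cyclin most widely tied to growth factor signals, had 36.6, 32.9 and 34.9 CPM in Ctrl and 40.1, 34.7 and 32.1 CPM in cKO. The highest and the lowest of the 6 values were both cKO libraries, so the groups overlapped throughout. The log2 fold change was 0.04 (SE 0.12, edgeR adjusted p = 0.964), with a 95% interval of 0.849-fold to 1.24-fold. Its sign turned when cKO replicate 1 (-0.06) or Ctrl replicate 2 (-0.003) was left out.

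Ccnd3 had 21.4, 27.2 and 17.5 CPM in Ctrl and 25.4, 24.0 and 20.3 CPM in cKO. All cKO values lay within the range of the Ctrl libraries, whose extremes were replicates 2 and 3. This gave a log2 fold change of 0.08 (SE 0.18, edgeR adjusted p = 0.945) with a 95% interval of -0.32 to 0.48. It was 0.26 without Ctrl replicate 2 and -0.06 without Ctrl replicate 3, and passed in neither. The counts of Ccnd1, Ccnd3 and Ccne2 were fractional in all 6 libraries, a sign of reads divided among similar sequences by estimation, so these levels are less certain than the others.

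A rise of Ccnd1 or Ccnd3 in cKO was therefore not detected with 3 libraries per group, though the intervals allow one of up to 1.24-fold for Ccnd1 and 1.39-fold for Ccnd3. These bounds are from the fit with all 6 libraries. Without Ctrl replicate 2 the log2 fold change of Ccnd3 was larger, 0.26 (SE 0.14), and no interval was computed for that fit. In TPM, the mean of Ccnd2 was 144.6 ± 25.9 in Ctrl and 110.6 ± 12.8 in cKO, a difference of -34.0 TPM. On this scale the groups overlapped, since Ctrl replicate 2 (114.7 TPM) lay below cKO replicates 1 (120.3 TPM) and 3 (115.55 TPM). Ccnd1 and Ccnd3 together had 50.3 ± 1.75 TPM in Ctrl and 57.6 ± 7.33 TPM in cKO, a difference of 7.27 TPM, and cKO replicate 3 lay within the Ctrl range. The median gene was itself 0.14 log2 units higher in cKO on the log2(TPM + 1) scale, so these TPM differences are to be read relative to that shift.

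The sum of the D cyclins was 211.9, 165.6 and 207.2 TPM in Ctrl and 185.2, 153.6 and 165.8 TPM in cKO. The groups overlapped through Ctrl replicate 2, and the means were 194.9 ± 25.5 and 168.2 ± 15.9 TPM. The log2 ratio of the means was -0.21, and -0.32 without Ctrl replicate 2. Ccnd2 made up 75.6%, 69.3% and 76.7% of that sum in the Ctrl libraries, and 65.0%, 62.6% and 69.7% in the cKO libraries. Without Ctrl replicate 2 the shares of the groups did not overlap. The share of Ccnd1 was 10.8% to 11.0% in Ctrl and 13.08% to 15.14% in cKO, without overlap. A share of a sum rises when another member is lower, so it does not show a higher level of Ccnd1.

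**Figure D3:**
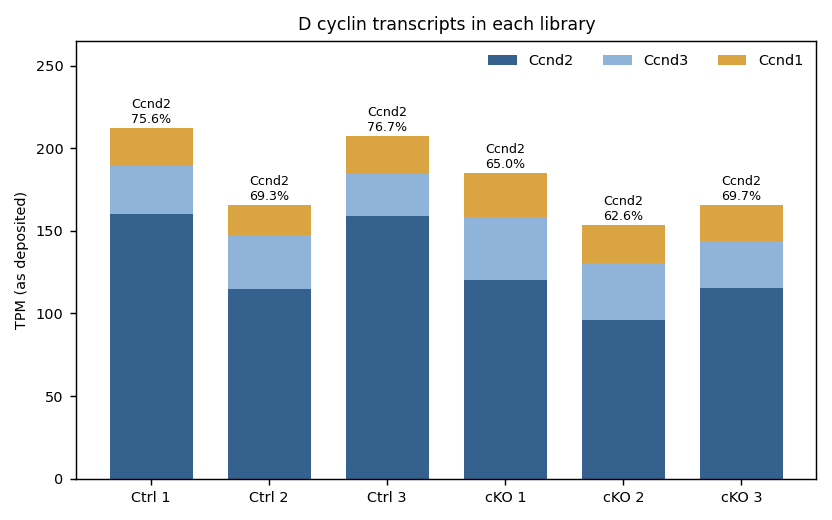
Deposited TPM (y axis) of Ccnd2 (dark blue), Ccnd3 (light blue) and Ccnd1 (yellow), stacked for each library, with the share of Ccnd2 above each bar. Ccnd2 is the largest segment in every library, and its share is 69.3% to 76.7% in Ctrl and 62.6% to 69.7% in cKO.

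The balance between 2 D cyclins within a library does not depend on scaling to library size. The log2 ratio of Ccnd2 to Ccnd1 (CPM) was 3.49, 3.37 and 3.50 in Ctrl and 2.85, 2.74 and 3.10 in cKO. Every cKO ratio was below every Ctrl ratio, and the means differed by -0.56 (exact two-sided permutation test, p = 0.1, the smallest possible; adjusted over 3 ratios, p = 0.3). The difference lay between -0.66 and -0.48 whichever library was left out. The log2 ratio of Ccnd2 to Ccnd3 was 4.267, 3.64 and 4.5 in Ctrl and 3.505, 3.268 and 3.765 in cKO. The means differed by -0.62 (exact permutation p = 0.2, adjusted 0.3), with groups that overlapped only through Ctrl replicate 2. For Ccnd1 to Ccnd3 the difference was -0.06 (exact permutation p = 0.8, adjusted 0.8).

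Cdk4, the more abundant of the kinases, had 288.5, 385.6 and 251.0 CPM in Ctrl and 251.1, 270.2 and 263.5 CPM in cKO. The cKO libraries lay close together, inside the wide range of the controls, whose top value was Ctrl replicate 2. This was a log2 fold change of -0.24 (SE 0.16, edgeR adjusted p = 0.841), and one of -0.04 without Ctrl replicate 2.

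Cdk6 had 81.6, 52.5 and 96.3 CPM in Ctrl and 70.8, 85.0 and 76.9 CPM in cKO. Here Ctrl replicate 2 was the lowest library. The log2 fold change was 0.02 (SE 0.20, edgeR adjusted p = 0.991) with all libraries and -0.20 (adjusted p = 0.486) without Ctrl replicate 2. Its sign also turned without cKO replicate 2 (-0.06) and with the length and GC correction (-0.13). Over the 16 alternatives the adjusted p ranged from 0.486 to 0.9999.

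The E cyclins, which act later in G1, were the least abundant of the set. Ccne1 had 5.20, 4.80 and 3.91 CPM in Ctrl and 4.27, 5.67 and 4.66 CPM in cKO, from 57 to 90 counts per library, and its log2 fold change was 0.07 (SE 0.20, edgeR adjusted p = 0.958). Ccne2 had 8.46, 6.97 and 10 CPM in Ctrl and 9.10, 9.57 and 10.5 CPM in cKO, with a log2 fold change of 0.20 (SE 0.17, edgeR adjusted p = 0.863). Without Ctrl replicate 2 the log2 fold change of Ccne2 was 0.08. Neither E cyclin differed by more than the spread between replicates.

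Cdkn1c encodes p57, an inhibitor of cyclin-dependent kinases that is expressed from the maternal allele. It had 55.8, 82.6 and 49.6 CPM in Ctrl and 36.0, 48.2 and 43.5 CPM in cKO. Every cKO library lay below every Ctrl library, but cKO replicate 2 and Ctrl replicate 3 were only narrowly apart and Ctrl replicate 2 was far above the rest. The means were 62.7 ± 17.5 and 42.6 ± 6.18 CPM (SD, n = 3), a log2 fold change of -0.56 (SE 0.20, edgeR adjusted p = 0.607; exact permutation p = 0.1). Without Ctrl replicate 2 the log2 fold change was -0.31 (adjusted p = 0.335), without Ctrl replicate 3 it was -0.70, and after the correction for length and GC content it was -0.44 (SE 0.11, adjusted p = 0.107). Over the 16 alternatives the adjusted p ranged from 0.0611 to 0.9999. In the fit without cKO replicate 1 it was -0.45 and the unadjusted call was lost.

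Cdkn1b encodes p27, the more abundant of the 2 inhibitors. It had 174.4, 182.4 and 196.1 CPM in Ctrl and 156.1, 188.3 and 181.7 CPM in cKO, and only cKO replicate 1 lay below the Ctrl range. The log2 fold change was -0.07 (SE 0.11, edgeR adjusted p = 0.922), with a 95% interval of -0.33 to 0.19. On the log2(TPM + 1) scale, where the median gene was higher in cKO by 0.14, it was 0.07. Cdkn1b and Cdkn1c summed to 268.5 ± 12.8 TPM in Ctrl and 258.7 ± 26.8 TPM in cKO, and the ratio of summed D cyclins to summed inhibitors was 0.727 ± 0.098 and 0.660 ± 0.135, with overlap in both.

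Rb1, the substrate of the D cyclin kinases, had 69.5, 55.3 and 87.5 CPM in Ctrl and 77.8, 78.7 and 87.4 CPM in cKO. Its log2 fold change was 0.20 (SE 0.16, edgeR adjusted p = 0.860), and 0.05 without Ctrl replicate 2, the lowest library. Leaving out Ctrl replicate 3 instead gave 0.38 and brought Rb1 and Cdk4 (-0.37) under an unadjusted p of 0.05, so that 4 of 10 members were then called at that level, against 14% of all genes in that fit. Leaving out cKO replicate 1 left 1, Ccnd2, against 3.9% of all genes.

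The place of Ctrl replicate 2 among the controls followed the length of the transcript. Its log2 CPM minus the mean of Ctrl replicates 1 and 3 was 0.52 for Cdk4 (effective length 1105 bases), 0.65 for Cdkn1c (1610 bases) and 0.48 for Ccnd3 (1619 bases). At the other end it was -0.49 for Rb1 (4348 bases), -0.25 for Ccnd2 (5652 bases) and -0.75 for Cdk6 (11253 bases). Across the 10 genes Spearman's rho between length and deviation was -0.93, and across the 13570 tested genes it was -0.68. These correlations are across genes of the same 3 libraries and are descriptions only. Over all tested genes the median deviation was 0.35 for the 4259 genes under 2000 bases and -0.14 for the 9311 longer ones. For Ccnd2 the deviation lowers the Ctrl mean, and for Cdkn1c it raises it, as the values without this library show. What made the library differ was not tested.

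**Figure D4:**
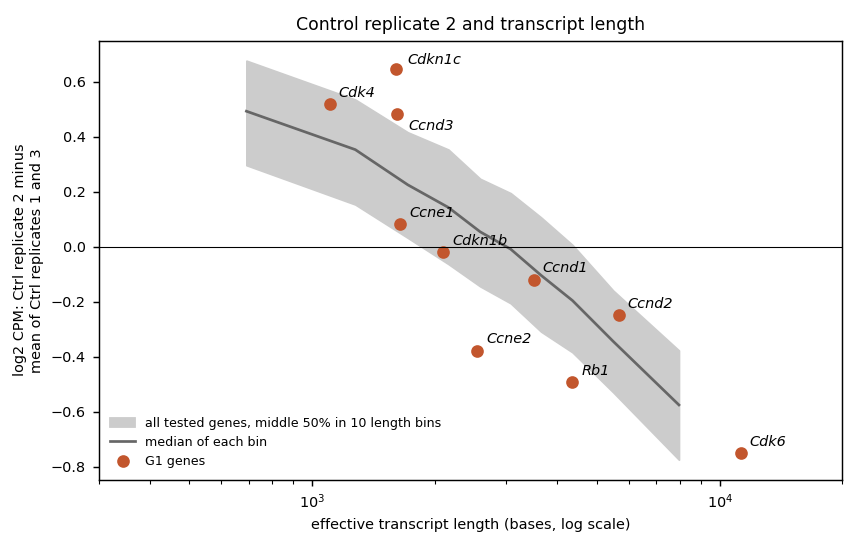
Deviation of Ctrl replicate 2 from the mean of Ctrl replicates 1 and 3 (log2 CPM, y axis) against effective transcript length in bases (log scale, x axis), for the 10 G1 genes (orange) and for all tested genes in 10 bins of equal size (median line, grey band for the middle 50%). The deviation is 0.52 for Cdk4, the shortest of the 10, and -0.75 for Cdk6, the longest.

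The wider pathway was described by 32 other genes of G1/S control, of which 30 were tested. Cdkn2a, with 0 or 1 count per library, and Cdkn2b, with 2 to 7, were too low. At an unadjusted p under 0.05, 0 of the 30 were higher and 2 were lower in cKO. Of all tested genes 6.62% were under that p in both directions together, and 3.49% were lower. By edgeR 0 of the 30 passed adjustment, against 0.0737% of all tested genes. Their median log2 fold change was -0.06, with 9 above 0 and 21 below, over a range from -0.40 (E2f1) to 0.23 (Rbl2, an Rb1 relative). E2f1, the E2F factor that Rb1 is best known to bind, had 14.9, 18.2 and 15.5 CPM in Ctrl and 12.0, 13.7 and 11.0 CPM in cKO, without overlap (log2 fold change -0.40, SE 0.15, edgeR adjusted p = 0.628). Without Ctrl replicate 2 the log2 fold change of E2f1 was -0.31 (edgeR adjusted p = 0.391). Groups without overlap were found for 6 of the 30 genes and for 14.3% of all tested genes. Uhmk1, a kinase that phosphorylates Cdkn1b, had 82.3, 62.1 and 92.4 CPM in Ctrl and 56.2, 65.5 and 61.5 CPM in cKO, where Ctrl replicate 2 overlapped with cKO (log2 fold change -0.37, SE 0.15, edgeR adjusted p = 0.715). The study lists Uhmk1 among its Ybx1 targets, chosen partly on these libraries, so its lower level is not independent evidence of the direction. Without Ctrl replicate 2 Uhmk1 passed adjustment with -0.52 (edgeR adjusted p = 0.037), as did 0.891% of all genes. It also passed after the length and GC correction with -0.50 (edgeR adjusted p = 0.0251), as did 1.13% of all genes. Over the 16 alternatives 0 to 5 of these genes were under an unadjusted p of 0.05. The 5 of 30 came from the length and GC correction, where 12.5% of all genes were under that p, and 0 passed adjustment with DESeq2. The summed level of the 30 genes was 1566, 1385 and 1594 CPM in Ctrl and 1396, 1509 and 1495 CPM in cKO, which overlapped only through Ctrl replicate 2. The largest part of this sum was Gsk3b, with 417, 263.7 and 464.7 CPM in Ctrl and 362.3, 404.8 and 417.7 CPM in cKO, so the order rests much on 1 gene. Cdk2, the kinase partner of the E cyclins, had a log2 fold change of -0.22 (SE 0.12, edgeR adjusted p = 0.806), and the inhibitor Cdkn1a (p21) had -0.04 (SE 0.21, edgeR adjusted p = 0.983).

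Downstream, 24 E2F target genes of DNA replication and nucleotide supply, such as the Mcm helicase subunits, Pcna and Tk1, were all tested. With edgeR 0 of 24 were called in either direction, at an adjusted or an unadjusted p under 0.05, against 0.0737% and 6.62% of all tested genes. The same counts of the 24 came from DESeq2. Over the 16 alternatives 0 to 3 were under an unadjusted p of 0.05, and 0 passed adjustment. The 3 of 24 came from the length and GC correction with the replicate block, where 14.1% of all genes were under that p. With all 6 libraries the log2 fold change was below 0 for 22 and above 0 for 2, with a median of -0.14. It went from -0.30 for Tk1 (thymidine kinase) to 0.20 for Orc1 (a subunit of the origin recognition complex). Tk1 had 8.03, 10.07 and 6.30 CPM in Ctrl and 5.39, 7.43 and 7.02 CPM in cKO, with Ctrl replicate 2 the highest. Signs and median without that library are not given here. The summed level of the 24 genes was 842.6 to 954 CPM in Ctrl and 817.3 to 844.4 CPM in cKO, with overlap. These genes are used by the same dividing cells and measured in the same 6 libraries, so their signs are not independent of each other.

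**Figure D5:**
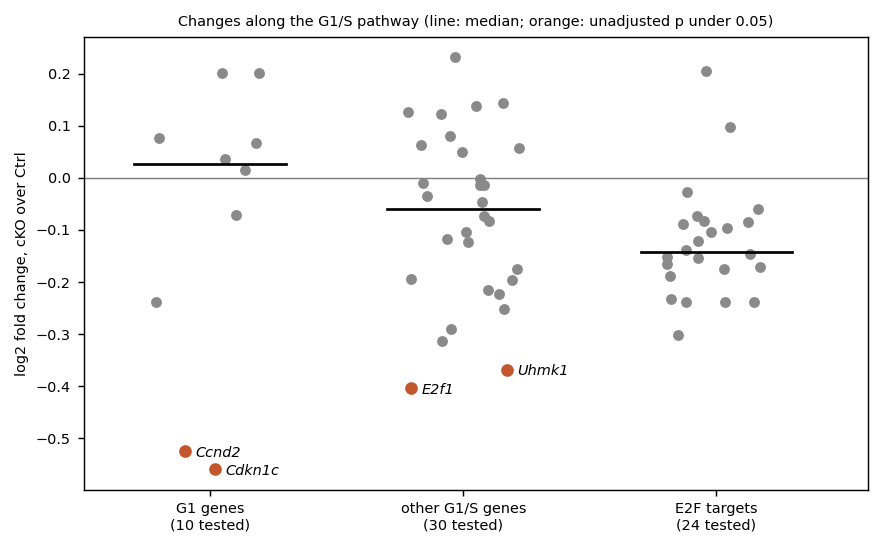
Log2 fold change of cKO over Ctrl (y axis) for the 10 G1 genes, 30 other G1/S genes and 24 E2F targets, 1 point per gene spread sideways at random, with the median as a line and genes at an unadjusted p under 0.05 in orange. The orange points, Ccnd2, Cdkn1c, E2f1 and Uhmk1, lie below 0, and the medians are 0.03, -0.06 and -0.14.

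In whole cortex, fewer cells of a type cannot be told apart from less RNA per cell, and the values of progenitor and other markers are therefore given beside Ccnd2. With all 6 libraries 0 of 6 markers of cycling cells were called by edgeR at an adjusted or an unadjusted p under 0.05, against 0.0737% and 6.62% of all tested genes. Their summed level was 462, 332.9 and 433.5 CPM in Ctrl and 412.5, 387.9 and 417.4 CPM in cKO. The groups overlapped through Ctrl replicate 2, and without it every cKO sum lay below both Ctrl sums. The share of all genes so separated without that library was not computed. Sums of some other cell types were then apart as well, in both directions. Mki67 (127.2 to 205 CPM in Ctrl) and Top2a (126.6 to 172.5 CPM in Ctrl) were the largest parts of this sum. The markers of cycling cells did not all lie lower in cKO: with all 6 libraries 4 had a log2 fold change below 0 and 2 above. Bub1 (0.22) was higher in every cKO library, with 13.9 to 19.5 CPM in Ctrl and 19.7 to 21.4 CPM in cKO. Ccnb1 (-0.23) was lower in every cKO library, with 27.9 to 33.2 CPM in Ctrl and 23.1 to 27.4 CPM in cKO. Groups were thus without overlap for 2 of the 6 markers, and for 14.3% of all tested genes. In the fit without Ctrl replicate 2, 1 of the 6, Ccnb1 (-0.28, edgeR adjusted p = 0.339), was under an unadjusted p of 0.05, against 12.1% of all genes. With all 6 libraries 1 of 8 radial glia markers, Pax6, was under an unadjusted p of 0.05 and was higher in cKO (log2 fold change 0.31, edgeR adjusted p = 0.608). Of the 8, 3 lay above 0 and 5 below, with a median of -0.09 and the lowest value for Hes5 (-0.29). Their sum overlapped between groups, with 747.5 to 993 CPM in Ctrl and 832.2 to 922.2 CPM in cKO. The 4 markers of intermediate progenitors had 0 calls and sums of 359.8 to 375.8 CPM in Ctrl and 320.9 to 403.5 CPM in cKO.

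Among the other cell types, calls are at an unadjusted p under 0.05 with all 6 libraries, where 6.62% of all tested genes were called. In endothelium and pericytes 2 of 5 markers were called higher, Cdh5 (0.41, edgeR adjusted p = 0.514) and Pdgfrb (0.27, edgeR adjusted p = 0.731). Of the 5, 4 lay above 0 and 1, Cldn5 (-0.09), below. Their sums overlapped with 216.6 to 266.9 CPM in Ctrl and 253.3 to 295.4 CPM in cKO. The sum of the 2 measured markers of meninges, Col1a1 and Col1a2, was 4.83 to 5.97 CPM in Ctrl and 6.45 to 7.43 CPM in cKO, without overlap, while Dcn and Lum were too low to test. Of the 2, only Col1a2 was itself without overlap, which held for 14.3% of all tested genes. Among 6 markers of excitatory neurons 1 was called, Slc17a7 (0.73, edgeR adjusted p = 0.0722), while 4 lay below 0, down to -0.21 for Neurod2. Among 3 of astrocytes 1 was called, Aqp4 (0.74, edgeR adjusted p = 0.718), from 36 to 103 counts per library, while Aldh1l1 was -0.36. Slc17a7 passed adjustment without Ctrl replicate 2 (0.69, edgeR adjusted p = 0.00576), as did 0.891% of all genes. Without Ctrl replicate 2 the groups' sums were also apart for excitatory neurons (2760 and 3008 CPM in Ctrl, 2426 to 2669 CPM in cKO), erythroid cells (803.7 and 816.5 CPM in Ctrl, 818 to 1006 CPM in cKO) and microglia (38.8 and 40.5 CPM in Ctrl, 44.9 to 46.9 CPM in cKO), each of which overlapped with it. How often genes separate with that library left out was not computed. The markers of microglia, erythroid cells, interneurons and striatum, and oligodendrocyte precursors had 0 calls with all 6 libraries, and Ttr, Folr1 and Kl of the choroid plexus were too low to test. The part of cell composition in the values of the G1 genes was not tested.

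The genes whose log2 CPM followed Ccnd2 most closely over the 6 libraries included AW551984 (Pearson's r = 0.992) and Prkar2a (0.975), a regulatory subunit of protein kinase A. AW551984 averaged 7.84 ± 0.880 CPM in Ctrl and 5.53 ± 0.549 CPM in cKO. Prkar2a averaged 98.1 ± 8.63 and 63.4 ± 3.17 CPM, and neither passed adjustment by edgeR (adjusted p = 0.604 and 0.148). The 6 libraries fall into 2 groups, so these correlations include the difference between the groups, and 23 genes had an r above 0.95. None of the other 9 G1 genes was among the 3 closest.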

How the data were processed

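The data are 3 Ctrl and 3 cKO RNA-seq libraries, grouped by the submitters' sample titles. The authors deposited 1 table with estimated counts, TPM and FPKM for every gene of each library. The submitters' processing notes name HISAT2 2.2.1, Bowtie2 2.4.5, RSEM 1.3.1 and GRCm38. Annotation and strandedness are not given in the sources used here. Of the deposited counts, 89.4% were whole within 0.005, and the rest were rounded.

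Genes were filtered with filterByExpr, scaled by TMM and compared in R 4.3.3 by the quasi-likelihood test of edgeR 4.0.16, and p-values were adjusted after Benjamini and Hochberg over all tested genes. CPM values use the TMM-scaled total, and errors are SD. Intervals are 95% intervals of the fit. Single values were compared by exact two-sided permutation (scipy 1.17.1). The deposited TPM values served for levels between genes, and effective lengths were derived from the deposited counts and FPKM. Alternatives were DESeq2 1.42.0, RLE size factors, TMM without ribosomal protein and translation factor genes, other filters, limma 3.58.1 on log2 values of TPM or FPKM with a pseudocount of 1, a smooth correction for length and GC content (mgcv 1.9.3, 16780 genes with both in GENCODE M21), the replicate number as a block, and each library left out. Only the main edgeR fit was tested on simulated counts, which had a common dispersion and no deviation with transcript length.

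The members, gene lists and tests were chosen with earlier results of these data known. Genes named were the 10 members, the up to 6 genes with the smallest p under 0.05 (unadjusted) in each pathway list, and the 3 most like Ccnd2, of which 1 is not reported here. Cdk2, Cdkn1a, Gsk3b, Mki67, Top2a, the extremes of each list and the markers called were named after their values were seen. The common biological coefficient of variation was 0.147, and no pair of libraries was a duplicate.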

Additional observations from a re-analysis of the deposited data

How the results depend on the processing

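The log2 fold change of Ccnd2 was below 0 under all 16 alternatives. It passed adjustment with DESeq2 (-0.53), with the length and GC correction (-0.63), with that correction and a replicate block (-0.64) and without Ctrl replicate 2 (-0.60). Leaving out each library in turn gave -0.60 to -0.44. Ccne2, Cdk4, Cdkn1c and Rb1 also kept their sign under all 16. The sign turned for Ccnd1 without Ctrl replicate 2 (-0.003326) and without cKO replicate 1 (-0.05537; range with a library left out -0.05537 to 0.1052), for Ccnd3 without Ctrl replicate 3 (-0.06348 to 0.2587), and for Ccne1 without Ctrl replicate 3 (-0.0395) and without cKO replicate 2 (-0.05507 to 0.1573). It turned for Cdk6 with the length and GC correction (-0.1314), with that and the block (-0.1353), without Ctrl replicate 2 and without cKO replicate 2 (-0.197 to 0.2107), and for Cdkn1b with limma on log2(TPM + 1) (0.07353) and without cKO replicate 1 (-0.1252 to 0.006689). None of these values passed the test, and the cause was not tested.

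The number of G1 genes past the adjusted threshold was 0, and it was 1, Ccnd2, in the 4 settings where Ccnd2 passed (0 to 1 with a library left out). The number at an unadjusted p under 0.05 was 2, and 1 to 4 with a library left out, where the share of all genes under that p was 3.9% in the fit with 1 (without cKO replicate 1) and 14% in the fit with 4 (without Ctrl replicate 3). The median log2 fold change of the 10 was -0.04973 with the length and GC correction, -0.05279 with that and the block, 0.18 with limma on log2(TPM + 1), where the median of all genes was 0.14, and -0.0558 to 0.05886 with a library left out. The summed D cyclins had a log2 ratio of -0.21 in TPM and -0.44 in TMM-scaled CPM, which is not per length.

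Libraries with the same replicate number had positive but low correlations of their deviations (0.0884, 0.0615 and 0.23). Each library correlated best with its own number. The study states no pairing, so the main fit did not take the numbers as pairs, and the replicate block was an alternative. With the replicate block 11 genes passed in place of 10, and 0 of the G1 genes. No detection limit was computed for the genes that were not called.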
